A study of Homo sapiens with 32 samples.

Results

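The m6A peaks called at 6 genes, SLC29A3, SERPINH1, HM13, CHPF, LY96 and TNFRSF12A, are described here in 16 MeRIP-seq libraries. The genes were picked because the study names them for more m6A after SETD2 loss in 786-O cells. It lists them as genes whose RNA was also higher in 786-O SETD2KO, with both changes reversed on rescue. Every peak that overlaps one of their GRCh38 RefSeq gene bodies by at least 1 bp was taken. This gave 270 of the 474004 listed peaks, 169 of them in 786-O and 101 in RPTEC. In MeRIP-seq, RNA is cut into fragments, those bearing m6A are pulled down by antibody (IP), and a peak is a place where the IP exceeds its Input. 786-O is a clear cell renal cell carcinoma (ccRCC) line and RPTEC an hTERT-immortalized renal proximal tubule epithelial line used as a surrogate of normal tubule. In each, the lines were the parent (WT), the CRISPR/Cas9 clones SETD2KO-1 and SETD2KO-2, and a rescued line, SETD2KO-1R, made by putting a tagged SETD2 construct back into the first clone. All were untreated cultures with 2 IP libraries per line, and each knockout line is 1 clone. The 4 libraries of both SETD2KO clones were compared with the 4 SETD2-expressing libraries of WT and SETD2KO-1R. Nothing in the labels says whether the 2 libraries of a line came from separate cultures, so p-values measure only the spread between these libraries, which may be technical, and libraries of 1 clone share that clone.

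N6-methyladenosine is written on nascent RNA by the METTL3 and METTL14 methyltransferase complex, mostly at adenosines in a GGAC-like context and often near stop codons. SETD2 is the enzyme that trimethylates lysine 36 of histone H3 over transcribed gene bodies, and METTL14 can bind that mark, which is why SETD2 loss is studied for its effect on where m6A lies. SETD2 is among the genes most often inactivated in ccRCC. The 6 genes have unlike roles. SLC29A3 encodes the lysosomal nucleoside transporter ENT3, SERPINH1 the collagen chaperone HSP47 of the endoplasmic reticulum, HM13 the signal peptide peptidase of the same membrane, and CHPF a Golgi factor that helps to polymerize chondroitin. LY96 encodes MD-2, the lipopolysaccharide-binding partner of TLR4, and TNFRSF12A encodes Fn14, the receptor of the cytokine TWEAK.

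The study designed primers to measure m6A by MeRIP-QPCR at SERPINH1, SLC29A3, HM13 and CHPF. They are shown because they mark the stretch of each RNA that was assayed. All are written 5′ to 3′, and capitals mark GGAC as it would read along the amplified RNA strand, which the CHPF forward primer alone holds.
SERPINH1 forward: ccgagcaatctgggggtg
SERPINH1 reverse: atttgtaggctctggctcgg
SLC29A3 forward: gcacaagtaagagcaagaggt
SLC29A3 reverse: gcagccctgtcaactaaacaa
HM13 forward: gagcccagtcaccaaggaga
HM13 reverse: ttggactctcccaatccatgc
CHPF forward: cagcctatgacctgttgtGGAC
CHPF reverse: cagatgagctagcggaggca
Both SERPINH1 primers lie in a RefSeq promoter window (GRCh38.p14, plus strand), so this amplicon could be placed, on chromosome 11 from 75562364 to 75562447. It is 84 bp long, starts 111 bp after the gene start, ends 26 bp before a second RefSeq start of the gene and holds 1 GGAC. The other 3 pairs matched no promoter window and were not placed here.

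RefSeq promoter windows were matched for 3 of the 6 genes, SLC29A3, SERPINH1 and CHPF. The 250 bases before the SERPINH1 start are shown because 8 peaks at the gene reach into them. They lie on chromosome 11 from 75562003 to 75562252 on the plus strand (GRCh38.p14, RefSeq).
SERPINH1 upstream: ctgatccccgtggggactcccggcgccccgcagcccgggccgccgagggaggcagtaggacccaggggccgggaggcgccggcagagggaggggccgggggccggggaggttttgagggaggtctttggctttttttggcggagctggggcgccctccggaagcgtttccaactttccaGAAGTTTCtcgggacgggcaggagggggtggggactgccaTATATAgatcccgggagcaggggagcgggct
Capitals mark a match to GAANNTTC, the core of a heat shock element, which begins 71 bases before the start, and a TATATA run that begins 31 bases before it. HSP47 is a heat shock protein. Searched on both strands, GAANNTTC was found in 6.77% and TATATA in 3.99% of all 35116 promoter windows of 300 bases. A match is a description of these letters and no sign of binding.

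The lists held 25710 to 39670 peaks per library in 786-O and 19249 to 31207 in RPTEC, with no difference between SETD2KO and SETD2-expressing libraries beyond their spread (two-sided exact permutation test, p = 0.4 and p = 0.429). They hold no read counts, no RNA levels and no strand, so the depth of a library is unknown, and more m6A per transcript, more transcript, and a difference in the share of cells or in RNA per cell cannot be told apart. Enrichment too weak for the caller leaves no entry in a list. Of 9 renal epithelial markers, 7 had a peak in 786-O and 8 in RPTEC, CDH1 in neither, and of 4 hypoxia targets used as ccRCC markers that were found by symbol 3 had one in each, all but CA9. NDUFA4L2 was not matched by that symbol and was not analysed here. The 3 had lower SETD2KO means in 786-O, with a median difference of -2 peaks, where 40.2% of all genes had a lower mean, and 1 of them did in RPTEC, where 53.6% had. VEGFA, the angiogenic growth factor, had 2 to 3 peaks in 786-O SETD2KO and 4 to 7 in SETD2-expressing libraries, as in 0.901% of genes in that direction, and 2 to 7 against 5 to 7 in RPTEC (exact permutation test, p = 0.486). The part of these markers in the values of the 6 genes was not tested. Of 3 endothelial markers CDH5 alone had one, 1 peak in each RPTEC SETD2-expressing library and none in any other (exact permutation test, p = 0.0286, adjusted p = 1), as in 1.41% of genes in that direction. SETD2 itself had 4 to 10 peaks per library in 786-O SETD2KO and 7 to 10 in SETD2-expressing libraries. Those groups overlapped. In RPTEC SETD2 had 4 to 6 and 7 to 11, which did not overlap, with the p, adjusted p and share of genes given for CDH5. METTL3 had 2 peaks over the 8 libraries of 786-O and 1 over those of RPTEC.

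In 786-O, the SETD2KO mean number of peaks per library was higher at all 6 genes, and the number of bp of the gene body under peaks was as well. These are the libraries from which the study named the genes, so the 786-O values are a description and no test of them is given. Among the 12430 protein-coding genes with a peak in at least 1 library of 786-O, 45% had a higher SETD2KO mean by peaks and 54.6% by bp. The 4 SETD2KO libraries lay above all 4 SETD2-expressing libraries at 1 of the 6 genes, LY96, by both measures, against 1.52% of all genes by peaks and 3.28% by bp. The median difference over the 6 genes was 1.625 peaks and 833 bp, beside 0 peaks and 28.9 bp over all genes.

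The rule that chose the genes used no RPTEC values, though earlier results of both cell lines were known when it was set. In RPTEC the SETD2KO means were not higher in most of the 6 genes by number of peaks or by bp. The SETD2KO mean number of peaks was higher at 1 gene, SERPINH1, by 0.25 peaks, lower at 4 and equal at LY96, which had no peak. By bp under peaks the mean was lower at 5 genes and higher at none. By best score percentile, the rank of the best peak of a gene within its list, it was higher at 4 genes and lower at 1, where 42.5% of all genes had a higher mean, and each of the 4 turned sign without 1 library or another. A lower SETD2KO mean was the more frequent direction in RPTEC, at 53.6% of 12185 genes by peaks and 61.8% by bp. No member had all 4 SETD2KO libraries above the SETD2-expressing ones, where all genes gave 1.01% by peaks and 1.72% by bp. None of the 5 genes tested in RPTEC passed the two-sided exact permutation test after Benjamini-Hochberg adjustment over all 12185 genes, in peaks, bp or score rank. With 4 against 4 libraries its smallest unadjusted p is 0.0286, and no gene of the genome reached an adjusted p below 0.612 by bp or 1 by peaks, so no gene was called. At an unadjusted p of at most 0.05 it gave 295 genes by peaks, none of the 6 among them, and 569 by bp, 1 of them SLC29A3 with lower values. A p that misses the threshold does not show that the groups were alike.

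**Figure D1:**
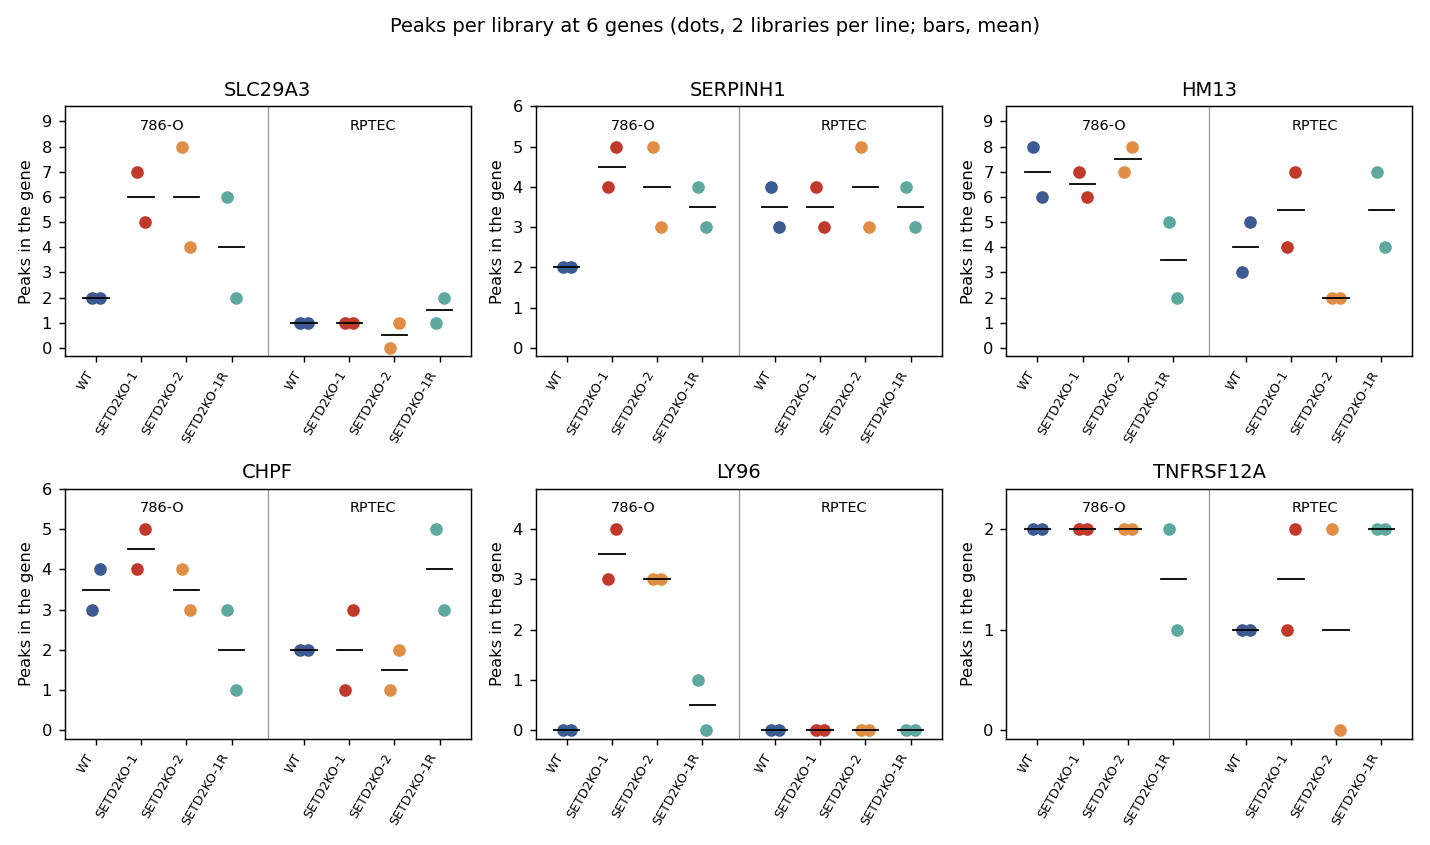
Number of peaks called in each gene (vertical axis) in every library of 786-O (left of each panel) and RPTEC (right), by line. Dots are the 2 libraries of a line and black lines their mean. LY96 had 3 or 4 peaks in each 786-O SETD2KO library, 0 or 1 in the SETD2-expressing ones and 0 in RPTEC, and SERPINH1 had 2 in each 786-O WT library and 3 to 5 in RPTEC of every line.

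SLC29A3 carried more peaks in 786-O SETD2KO than in 786-O WT, and 8 of its 10 peak regions were not called in any RPTEC library. The gene lies on chromosome 10 from 71319259 to 71381423 on the plus strand. In 786-O, WT had 2 and 2 peaks, SETD2KO-1 had 7 and 5, SETD2KO-2 had 8 and 4, and SETD2KO-1R had 6 and 2. One rescued library thus lay within the SETD2KO range and the other at the WT level. The mean was 6 ± 1.83 in SETD2KO and 3 ± 2 in SETD2-expressing libraries (SD, n = 4 each), and bp under peaks were 2746 ± 755 and 1287 ± 746. In RPTEC every library had 1 peak except SETD2KO-2 replicate 1 with 0 and SETD2KO-1R replicate 2 with 2. The RPTEC difference was -0.5 peaks (exact permutation test, p = 0.571, adjusted p = 1).

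Peaks of SLC29A3 formed 10 regions, where a region is a stretch in which peaks of any of the 16 libraries overlap. All 10 were called in 786-O and 2 in RPTEC. The strongest, from 71361832 to 71363132, was called in all 8 libraries of 786-O and in 7 of RPTEC, all but SETD2KO-2 replicate 1. Its 15 summits lay 43240 to 43392 bp after the gene start, a span of 152 bp across both cell lines. Its peaks ranked between percentiles 78.1 and 92 of the score in 786-O and between 36.9 and 90.7 in RPTEC. The score percentile is the share of peaks of the same list with an equal or lower score. A region from 71334954 to 71335875, with summits 16138 to 16301 bp after the start, was called in 4 of 4 SETD2KO, 0 of 2 WT and 1 of 2 SETD2KO-1R libraries of 786-O. Its peaks were 311 to 859 bp wide and ranked from percentile 17.7 to 72. No library of RPTEC called it. Of the 10 regions, 7 were called in more SETD2KO than SETD2-expressing libraries of 786-O, 0 in fewer and 3 in equal numbers. Outside the strongest region the 786-O medians of the regions ran from percentile 5.53 to 59. The 1 region called in a single library overlaps the lncRNA LOC105378353.

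In bp under peaks, SLC29A3 in RPTEC went the other way from 786-O. SETD2KO-1 had 369 and 333 bp, SETD2KO-2 had 0 and 376, WT had 691 and 413, and SETD2KO-1R had 393 and 808. All 4 SETD2KO libraries lay below all 4 SETD2-expressing ones, as in 2.95% of genes. The difference was -307 bp (exact permutation test, p = 0.0286, the smallest possible; adjusted p = 0.612), and with values per 10000 listed peaks its p was 0.143. Among the better-scored 50% of each list it was -35.8 bp (exact permutation test, p = 0.743) and 0 peaks. Without SETD2KO-2 replicate 1, which had no peak here, the difference was -217 bp (exact permutation test, p = 0.171), and the exact permutation p was 0.0857 to 0.114 without SETD2KO-1 replicate 1 or 2, SETD2KO-2 replicate 2 or SETD2KO-1R replicate 2. The rest of chromosome 10 held 4.17% to 4.25% of the list in 786-O SETD2KO and 4.28% to 4.8% in SETD2-expressing libraries, which is the opposite order to SLC29A3 (exact permutation test, p = 0.0286, adjusted p = 0.114 over 24 comparisons), and its part in these values was not tested. Peaks elsewhere within 1 Mb did not separate the groups in either cell line (18 to 25 in SETD2KO and 18 to 32 in SETD2-expressing libraries of 786-O, 7 to 20 and 13 to 24 in RPTEC).

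**Figure D2:**
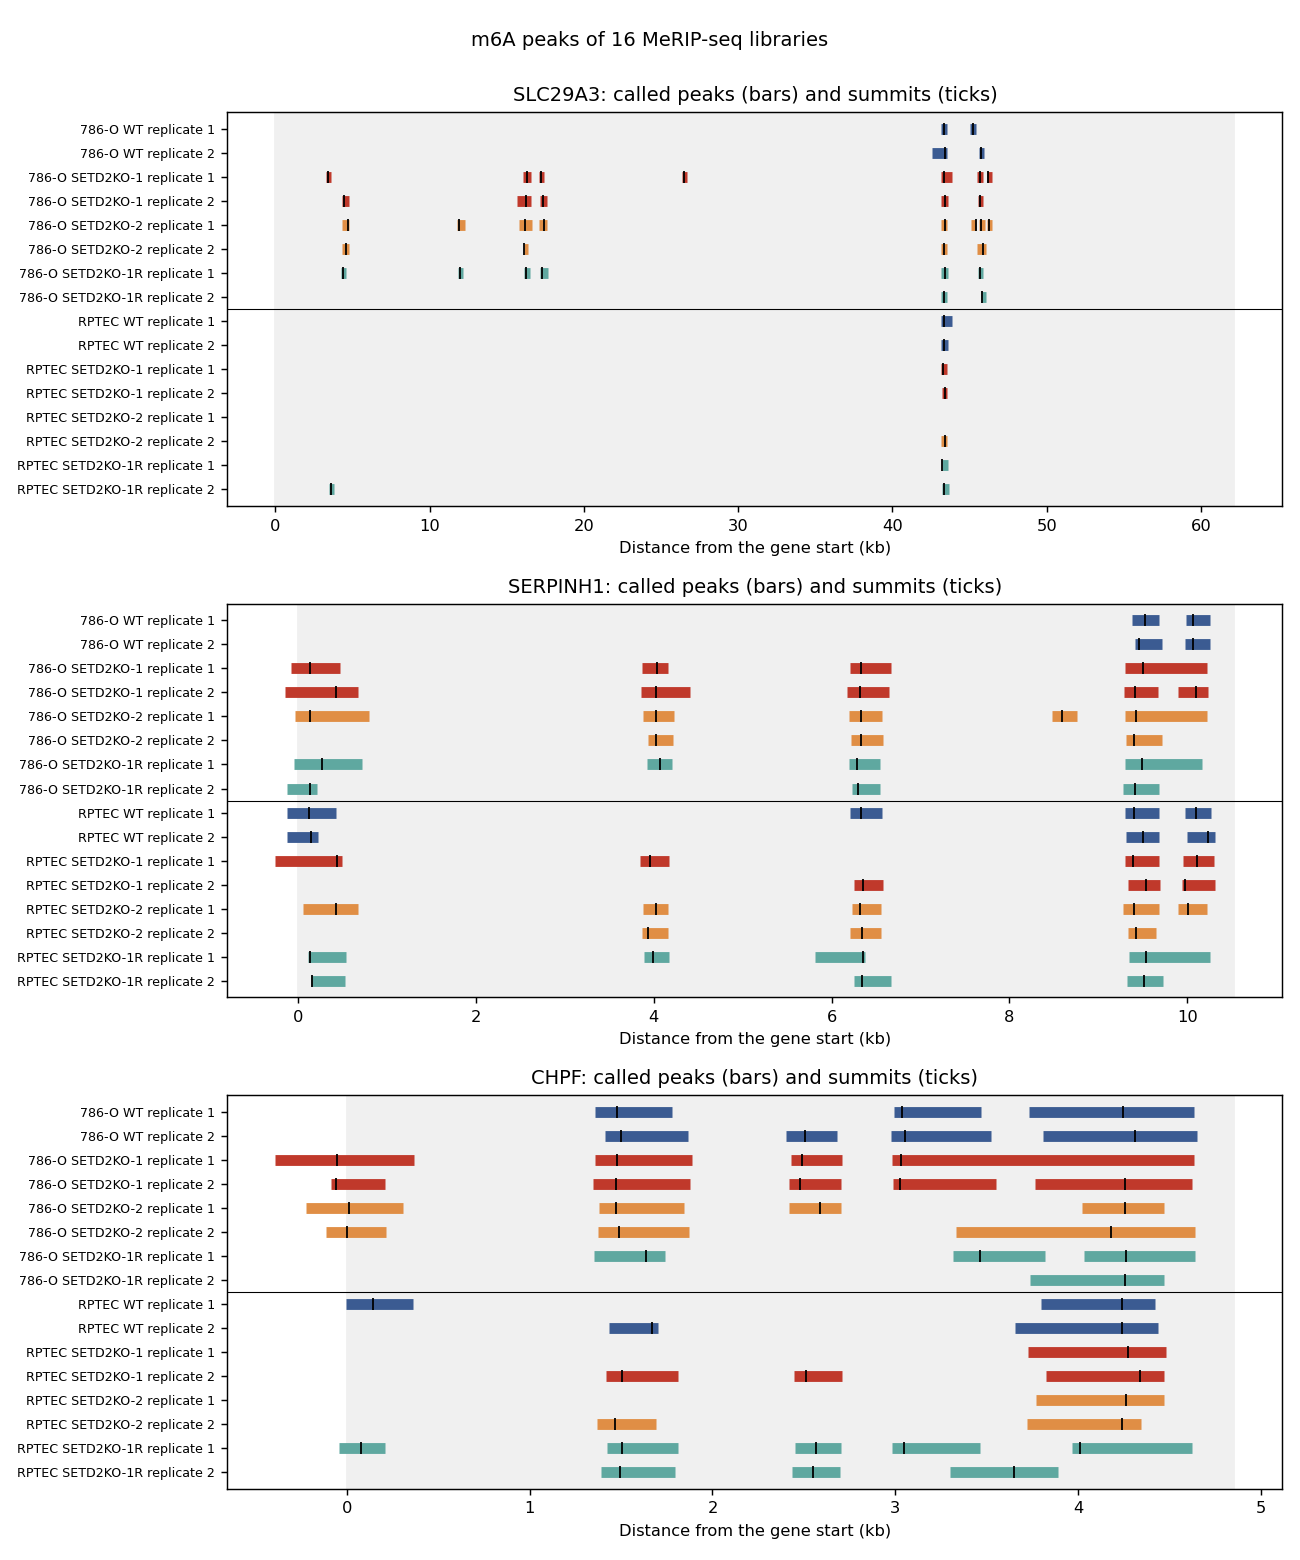
Peaks of SLC29A3, SERPINH1 and CHPF in each of the 16 libraries (rows) by distance from the gene start in kb, in the direction of transcription. Bars are called peaks (blue for WT, red for SETD2KO-1, orange for SETD2KO-2, teal for SETD2KO-1R), black ticks are summits and grey marks the gene body. Of the SLC29A3 regions other than the strongest one, 1 is called in RPTEC, in 1 library, while 4 of 5 SERPINH1 regions are called in both cell lines.

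At SERPINH1 the 786-O WT libraries stood apart from SETD2KO and from the rescued clone, and RPTEC WT carried peaks that 786-O WT lacked. The gene lies on chromosome 11 from 75562253 to 75572783 on the plus strand and no other gene of the table overlaps it. In 786-O, WT had 2 and 2 peaks, SETD2KO-1 had 4 and 5, SETD2KO-2 had 5 and 3, and SETD2KO-1R had 4 and 3. Both rescued libraries lay above both WT libraries. In RPTEC, WT had 4 and 3, SETD2KO-1 had 4 and 3, SETD2KO-2 had 5 and 3, and SETD2KO-1R had 4 and 3. The means were 3.75 ± 0.957 in SETD2KO and 3.5 ± 0.577 in SETD2-expressing libraries of RPTEC (SD, n = 4 each; exact permutation test, p = 1), and the difference was -0.167 without SETD2KO-2 replicate 1.

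In bp under peaks, 786-O WT had 577 and 582, SETD2KO-1 had 2146 and 2413, SETD2KO-2 had 2727 and 1049, and SETD2KO-1R had 2237 and 934. The WT pair lay below every other library. RPTEC libraries ranged from 962 to 1958 bp in SETD2KO and from 916 to 2188 bp in SETD2-expressing libraries, a difference of -56 bp (exact permutation test, p = 0.886) whose sign turned with values per 10000 listed peaks.

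SERPINH1 had 5 regions, 4 of them called in both cell lines. The one nearest to the gene end, 9274 to 10315 bp after the start, was called in all 16 libraries. Both peaks of each 786-O WT library lay in it, so 786-O WT had no SERPINH1 peak anywhere else. Its rank was lower in 786-O WT than in every other library, with the best peak at percentiles 53.1 and 44.9, against 72.8 to 90.3 in the other 786-O libraries and 64 to 86.9 in RPTEC, where WT stood at 86.9 and 74.1. The region was split into 2 peaks in 3 libraries of 786-O and 5 of RPTEC, with summits 9393 to 9537 bp and 9978 to 10228 bp after the start, so the number of peaks depends in part on how a list divides 1 stretch.

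The region around the SERPINH1 start holds the MeRIP-QPCR amplicon given above. A peak lay over the amplicon in 0 of 2 WT, 2 of 2 SETD2KO-1, 1 of 2 SETD2KO-2 and 2 of 2 SETD2KO-1R libraries of 786-O. In RPTEC it did so in 2 of 2 WT, 1 of 2 SETD2KO-1, 1 of 2 SETD2KO-2 and 2 of 2 SETD2KO-1R libraries, hence in 2 of 4 SETD2KO against 4 of 4 SETD2-expressing ones (Fisher's exact test, two-sided, p = 0.429). The amplicon was thus called in RPTEC WT and not in 786-O WT, and both rescued libraries of 786-O had it, as both of their SETD2KO-1 parent clone did. By MeRIP-QPCR the study reported more m6A here in 786-O SETD2KO than in WT, which rescue reversed. A call tells only whether a peak was listed, not its amount, so it cannot be set against that result. In 10 of these 11 libraries the peak covered the whole amplicon. The peaks reached up to 142 bp before the gene start in 786-O and 256 bp in RPTEC, while no summit lay before it. Summits lay 127 to 438 bp after the start. Ranks were higher in 786-O, with a median percentile of 82.3, than in RPTEC with 34.8, though scores of 2 lists are comparable only as ranks.

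Further into SERPINH1, 2 more regions were called in all 4 SETD2KO and neither WT library of 786-O. The first, from 75566100 to 75566662, was called in 1 of 2 SETD2KO-1R libraries of 786-O, and its peaks were 277 to 555 bp wide with summits 3939 to 4066 bp after the start. In RPTEC it was called in 3 of 4 SETD2KO, 0 of 2 WT and 1 of 2 SETD2KO-1R libraries, the same order as in 786-O though not separated by the test (Fisher's exact test, p = 0.486). Its ranks in RPTEC ran from percentile 18.1 to 81. The second, from 75568065 to 75568923, was called in both 786-O SETD2KO-1R libraries as well, and in RPTEC in 3 of 4 SETD2KO, 1 of 2 WT and 2 of 2 SETD2KO-1R libraries (Fisher's exact test, p = 1). Its 12 summits fell within 60 bp, 6291 to 6351 bp after the start, and it ranked between percentiles 62.8 and 91.1 over both cell lines. Of the 40 regions at the 6 genes called in 786-O, 4 had this pattern, as had 0.708% of the regions called in 786-O at all protein-coding genes. The other 2 lie in SLC29A3, as described, and at the start of CHPF, where peaks wholly outside its gene body were not counted. Over the 4, RPTEC SETD2KO exceeded SETD2-expressing libraries in calls at the first SERPINH1 region alone.

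Peaks on the rest of chromosome 11 had the opposite order to SERPINH1. They made up 3.62% to 4.22% of the list in 786-O SETD2KO and 4.56% to 4.88% in SETD2-expressing libraries. In RPTEC there were 19 to 28 other peaks within 1 Mb of the gene in SETD2KO and 33 to 47 in SETD2-expressing libraries, with no overlap. Both differences had an exact permutation p of 0.0286 and an adjusted p of 0.114 over 24 such comparisons, and their part in the SERPINH1 values was not tested.

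At HM13 the mean number of peaks in 786-O SETD2KO equalled that of WT, 7 peaks. It lies on chromosome 20 from 31514442 to 31569543, and holds MCTS2 within it and part of the lncRNA HM13-AS1 at its upper end. In 786-O, WT had 8 and 6 peaks, SETD2KO-1 had 7 and 6, SETD2KO-2 had 7 and 8, and SETD2KO-1R had 5 and 2. The low values were those of the rescued clone. Bp under peaks in 786-O were 3640 and 2695 in WT, 3273 and 2702 in SETD2KO-1, 2757 and 2989 in SETD2KO-2, and 2051 and 1167 in SETD2KO-1R. Against WT alone the difference in bp under peaks was -237, while against all SETD2-expressing libraries it was 542. Without SETD2KO-1R replicate 2 it was 135 bp and 0.667 peaks in place of 1.75, without WT replicate 1 it was 959 bp and 2.67 peaks, and it was 122 bp among the better-scored 50% of peaks. In RPTEC, WT had 3 and 5 peaks, SETD2KO-1 had 4 and 7, SETD2KO-2 had 2 and 2, and SETD2KO-1R had 7 and 4. The 2 SETD2KO clones lay apart there, with means of 5.5 and 2, and the rescued clone had a mean of 5.5. Bp under peaks in RPTEC were 635 and 718 in SETD2KO-2 and 1752 to 3082 in the other 6 libraries. The RPTEC difference was -1 peak (exact permutation test, p = 0.571) and -941 bp (p = 0.2), and with the same number of peaks taken from each list it was 0.25 peaks. With single libraries left out it ranged from -2.08 peaks, without SETD2KO-1 replicate 2, to -0.25 peaks, without SETD2KO-1R replicate 1. It was -1.58 peaks without WT replicate 1 and -0.417 without either SETD2KO-2 library.

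Of the 16 HM13 regions, 13 were called in 786-O, 10 in RPTEC and 7 in both, and 6 were called in 1 library alone. In 786-O, 6 were called in more SETD2KO than SETD2-expressing libraries and 4 in fewer. In RPTEC the counts were 4 and 4. A cluster of 2 regions 1598 to 3270 bp from the lower end was called in 786-O SETD2KO alone, in 2 and 3 libraries, and in no library of RPTEC. The region of highest rank of all 43 lay 54414 to 54757 bp from the lower end, over HM13-AS1. It was called in 5 libraries of 786-O, both of SETD2KO-1 and 1 of each other line, and in 2 of RPTEC, SETD2KO-1 replicate 2 and SETD2KO-1R replicate 1. Its peaks ranked between percentiles 95.9 and 99, were 234 to 315 bp wide and had summits within 30 bp of each other. It was thus near the top of 7 lists and absent from the other 9. Without strand it cannot be told which of the overlapping RNAs it marks. A region that overlaps MCTS2, 33587 to 34506 bp from the lower end, was called in 14 libraries, all but those of RPTEC SETD2KO-2.

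**Figure D3:**
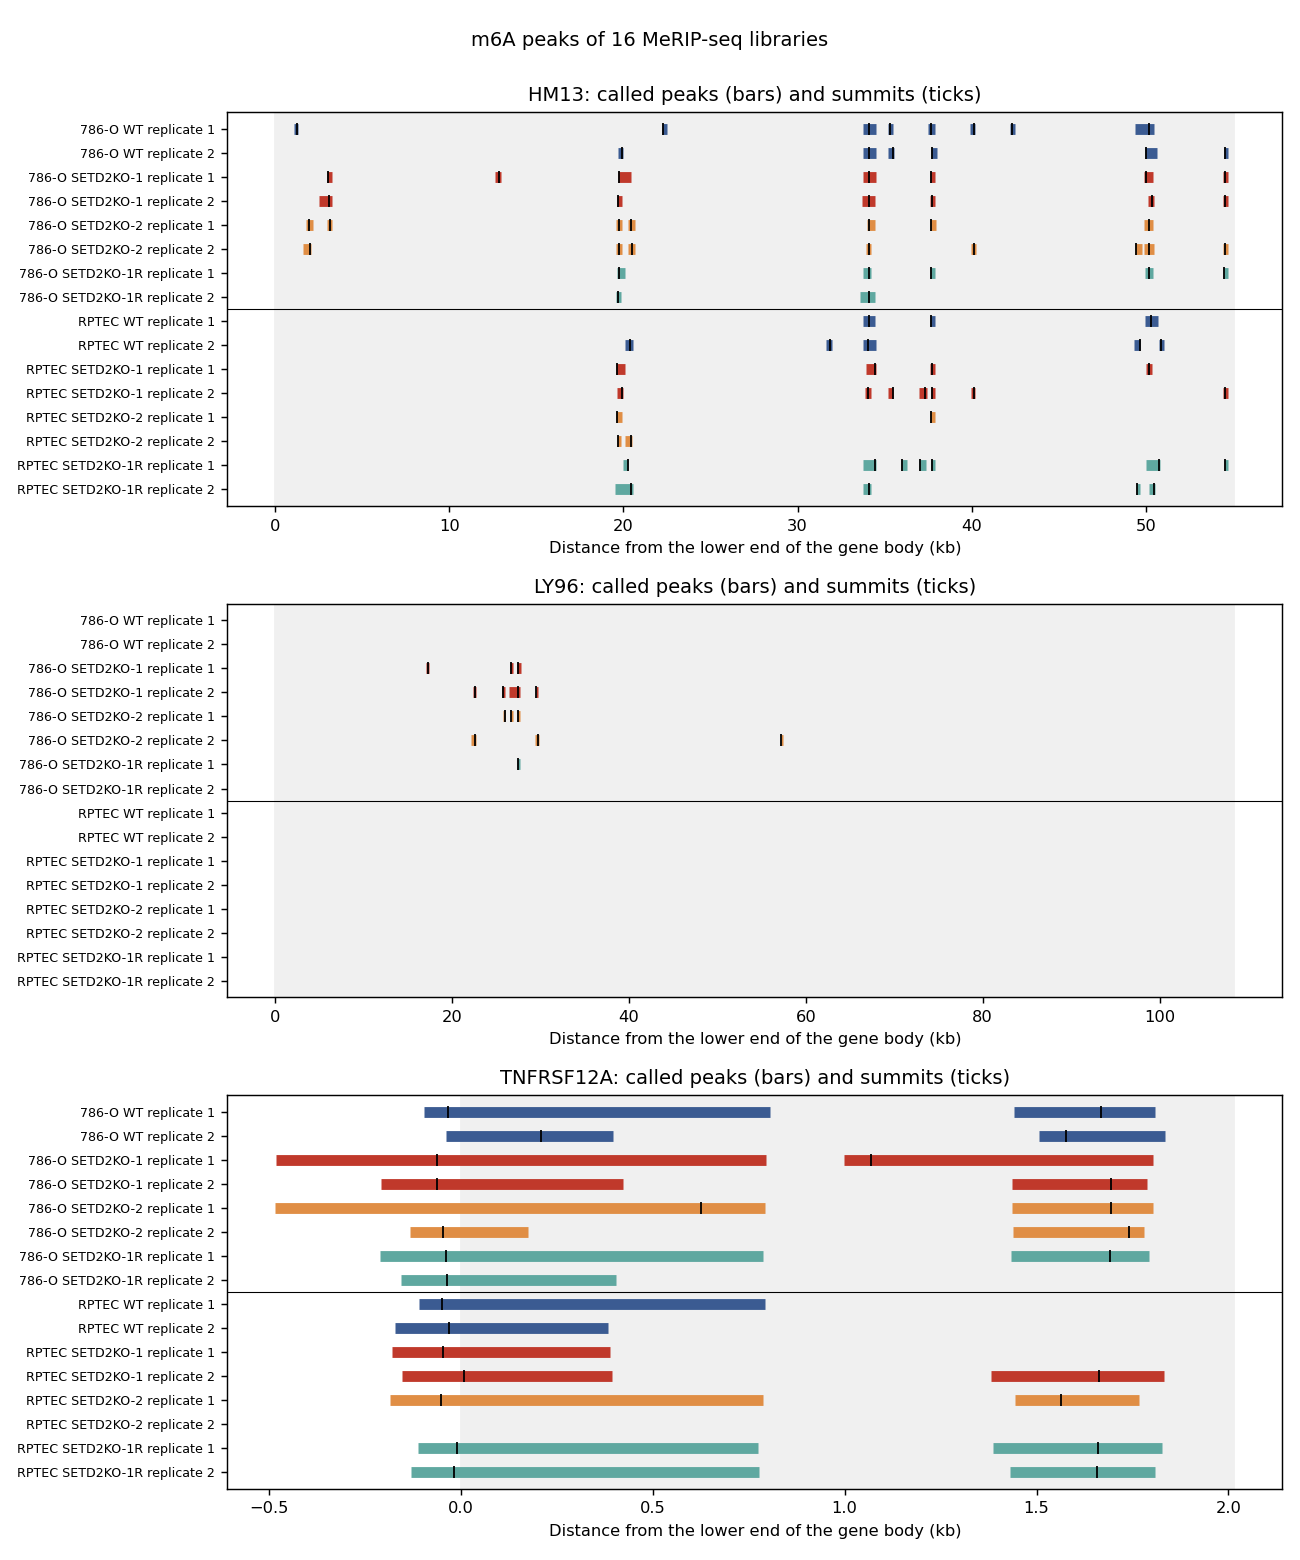
Peaks of HM13, LY96 and TNFRSF12A in each of the 16 libraries (rows) by distance from the lower end of the gene body in kb. Bars are called peaks (blue for WT, red for SETD2KO-1, orange for SETD2KO-2, teal for SETD2KO-1R), black ticks are summits and grey marks the gene body. LY96 peaks appear in 786-O SETD2KO libraries and 1 SETD2KO-1R library, and TNFRSF12A peaks in every library but RPTEC SETD2KO-2 replicate 2.

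CHPF had slightly more peaks in 786-O SETD2KO and fewer in RPTEC SETD2KO, with overlapping groups in both. The gene lies on chromosome 2 from 219538954 to 219543809 on the minus strand, and its start overlaps TMEM198. In 786-O, WT had 3 and 4 peaks, SETD2KO-1 had 4 and 5, SETD2KO-2 had 4 and 3, and SETD2KO-1R had 3 and 1. SETD2KO-2 thus had the same number as WT, in mean 3.5. The 786-O difference was 1.25 peaks and 664 bp. Without SETD2KO-1R replicate 2 it was 0.667 peaks and 394 bp, and against WT alone it was 0.5 peaks and 238 bp. Bp under peaks were 1803 and 2129 in WT, 2833 and 2452 in SETD2KO-1, 1506 and 2026 in SETD2KO-2, and 1498 and 731 in SETD2KO-1R, with SETD2KO-1 above all others. In RPTEC, WT had 2 and 2, SETD2KO-1 had 1 and 3, SETD2KO-2 had 1 and 2, and SETD2KO-1R had 5 and 3. The RPTEC difference was -1.25 peaks (exact permutation test, p = 0.314) and -393 bp (p = 0.2). With the same number of peaks taken from each list it was -0.25 peaks and -23.8 bp, and without SETD2KO-1R replicate 1 it was -0.583 peaks and -170 bp. Against WT alone it was -0.25 peaks and -92.2 bp. On the rest of chromosome 2 RPTEC SETD2KO had the larger share of the list, 6.93% to 6.96% against 6.43% to 6.74% (exact permutation test, p = 0.0286, adjusted p = 0.114 over 24 comparisons), and its part in the CHPF values was not tested. The rescued clone had fewer peaks than its SETD2KO-1 parent clone in 786-O and more in RPTEC.

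All 4 CHPF regions were called in both cell lines. The one towards the gene end, 2977 to 4653 bp after the start, was called in all 16 libraries, and its best peak ranked between percentiles 31.4 and 86 in 786-O and between 24.9 and 66.1 in RPTEC. A region over the start itself, from 219543442 to 219544201, was called in all 4 SETD2KO libraries of 786-O and in neither WT nor SETD2KO-1R. Its peaks there were 299 to 760 bp wide and ranked from percentile 8.85 to 69.7. RPTEC had calls in 1 WT library at percentile 14.1, in 1 SETD2KO-1R library at percentile 7.55, and in no SETD2KO library (Fisher's exact test, p = 0.429). This stretch also lies partly in the gene body of TMEM198, and without strand the 2 genes cannot be told apart there. In 786-O WT replicate 2 and SETD2KO-1R replicate 1, a peak wholly within TMEM198 overlapped the outer end of this region without touching CHPF, from 5167 and 5116 bp after the lower end of CHPF.

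LY96 was the one gene with a peak in every 786-O SETD2KO library and in no WT library, and RPTEC had none. The gene lies on chromosome 8 from 73991392 to 74099857. In 786-O, WT had 0 and 0 peaks, SETD2KO-1 had 3 and 4, SETD2KO-2 had 3 and 3, and SETD2KO-1R had 1 and 0. Bp under peaks were 1035 and 2156 in SETD2KO-1, 905 and 1154 in SETD2KO-2 and 299 in the 1 SETD2KO-1R library with a peak. The 14 peaks made 6 regions, none of which was called in all 4 SETD2KO libraries. The most shared, 26408 to 27799 bp from the lower end, was called in both SETD2KO-1 libraries, 1 SETD2KO-2 library and 1 SETD2KO-1R library. The median percentile of the peaks was 25.6, and the highest, 82, was the single peak 57131 to 57391 bp from the lower end in SETD2KO-2 replicate 2, over RNU6-1300P. Among the better-scored 50% of every list, the 786-O difference was 1 peak in place of 3, and with the same number of peaks from each list it was 1.75.

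In RPTEC all 8 libraries had 0 peaks at LY96, so no difference could be seen in either direction and no test was made. The rest of chromosome 8 had the same order as LY96 in 786-O, holding 4.21% to 4.44% of the list in SETD2KO and 3.45% to 3.74% in SETD2-expressing libraries. It did so in RPTEC too, with 3.75% to 3.98% and 3.34% to 3.68%. In each cell line the groups did not overlap (exact permutation test, p = 0.0286, adjusted p = 0.114 over 24 comparisons). Within 1 Mb of the gene, other peaks numbered 21 to 25 in SETD2KO and 17 to 21 in SETD2-expressing libraries of 786-O (p = 0.0857 in the exact permutation test), and 11 to 15 and 10 to 18 in RPTEC. Their part in the LY96 values was not tested. LY96 is known from myeloid cells. Of 7 myeloid markers, 2 had a peak in each cell line, CD68 and CSF1R, while PTPRC, CD14, ITGAM, TYROBP and LYZ had none. CD68 had one in 8 libraries of 786-O and 7 of RPTEC, but CSF1R in only 1 library of each.

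TNFRSF12A differed least of the 6 genes in 786-O, by 0.25 peaks and 151 bp. It lies on chromosome 16 from 3020368 to 3022383. In 786-O all libraries had 2 peaks except SETD2KO-1R replicate 2 with 1. Bp under peaks in 786-O were 1176 and 725 in WT, 1602 and 774 in SETD2KO-1, 1162 and 517 in SETD2KO-2, and 1146 and 404 in SETD2KO-1R, and the groups overlapped. In RPTEC, WT had 1 and 1 peak, SETD2KO-1 had 1 and 2, SETD2KO-2 had 2 and 0, and SETD2KO-1R had 2 and 2. The RPTEC difference was -0.25 peaks (exact permutation test, p = 1) and -300 bp (p = 0.371). With the same number of peaks taken from each list, the 786-O difference was -0.5 peaks and -114 bp, while values per 10000 listed peaks kept the sign, and the cause was not tested. Without SETD2KO-1R replicate 2 the 786-O differences were 0 peaks and -1.92 bp. In RPTEC the difference was 0.167 peaks and -104 bp without SETD2KO-2 replicate 2, the library with none. It was -476 bp without SETD2KO-2 replicate 1, -468 bp without WT replicate 2, -190 bp without SETD2KO-1R replicate 1 and -1.25 bp against WT alone, so its size is not settled.

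The 2 TNFRSF12A regions cover most of the gene. The first, called in 15 of 16 libraries, all but RPTEC SETD2KO-2 replicate 2, reached from 484 bp below the lower end of the gene body to 805 bp within it. In 6 of 8 libraries of 786-O and 6 of 7 of RPTEC its summit lay outside the RefSeq gene body, by 10 to 63 bp, so a rule that asks for the summit inside the gene drops most of them, and the RPTEC difference then became 0.25 peaks and 88 bp. Its rank was high, from percentile 71.8 to 89.3 in 786-O. In RPTEC it was 86.9 to 88.4 in WT, 73.6 to 89.8 in SETD2KO-1R and 54.6 to 75.7 in the 3 SETD2KO libraries that called it. The best score percentile at the gene was 51 ± 35.3 in SETD2KO, where the library without a peak counted as 0, and 84.7 ± 7.47 in SETD2-expressing libraries of RPTEC (SD, n = 4 each; exact permutation test, p = 0.0857, adjusted p = 0.913). This difference of -33.7 was the largest in rank of the 6 genes in RPTEC. With each library left out it ranged from -41.9 to -16.7.

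**Figure D4:**
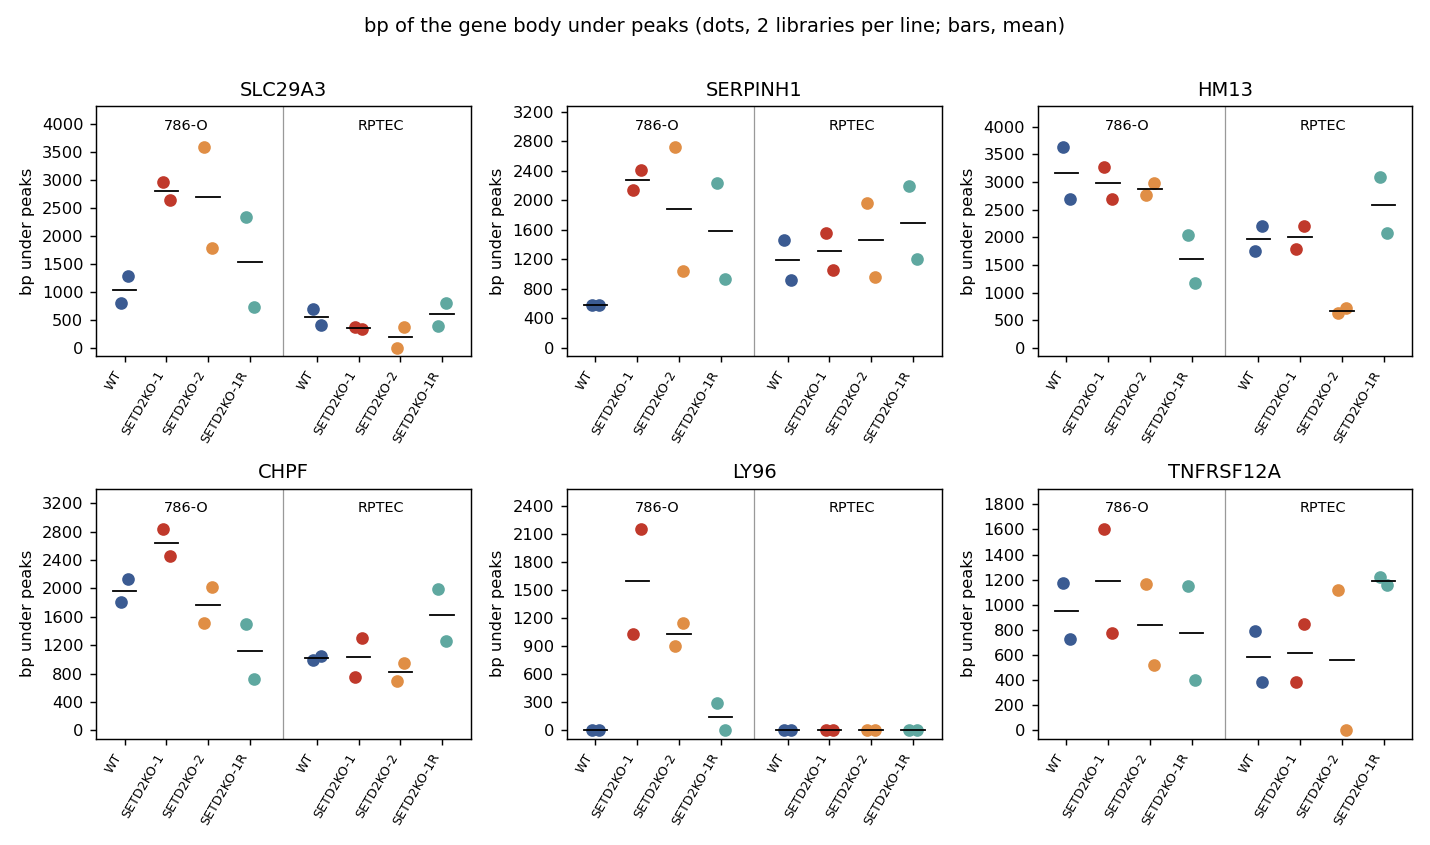
Number of bp of each gene body under peaks (vertical axis) in every library of 786-O (left of each panel) and RPTEC (right), by line. Dots are the 2 libraries of a line and black lines their mean. SERPINH1 in 786-O WT sits at 577 and 582 bp, below all other libraries of either cell line, and SLC29A3 in RPTEC stays at or below 808 bp.

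Over the 43 regions, 40 were called in 786-O and 22 in RPTEC, 19 of them in both, 21 in 786-O alone and 3, all in HM13, in RPTEC alone. In 786-O, 27 were called in more SETD2KO than SETD2-expressing libraries, 4 in fewer and 9 in equal numbers. Over the 68792 such regions of all protein-coding genes in 786-O, 39.4% were called in more and 34.5% in fewer. The 786-O counts at the 6 genes come from the libraries on which the genes were chosen, so nothing is read from them. In RPTEC, 5 were called in more, 11 in fewer and 6 in equal numbers, beside 30.8% in more and 44.6% in fewer of 60221 regions, so 11 of 22 lay near the background. Regions found in both cell lines had their summits at nearly the same place. For the best-ranked peak per library, the median summits of the 2 cell lines lay 30 bp apart in the median over the 19 regions, with 12 of 19 within 50 bp and the widest at 323 bp in HM13. Peak widths were alike as well, with medians of 354 to 505 bp per gene in 786-O outside LY96, where it was 312 bp, and of 355 to 557 bp in RPTEC.

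By best score rank the 786-O SETD2KO mean was higher at all 6 genes, as it was by number of peaks, and the groups did not overlap at LY96 alone, beside 50.4% and 2.63% of all genes. At SLC29A3 the sign turned without SETD2KO-2 replicate 2 or SETD2KO-1R replicate 2. At LY96 the means were 56.3 in SETD2KO and 5.43 in SETD2-expressing libraries, where a library without a peak counted as 0. At SLC29A3 the best percentile in 786-O was 86 ± 3 in SETD2KO and 85.2 ± 5.68 in SETD2-expressing libraries (SD, n = 4 each), although the mean number of peaks was 6 against 3. At CHPF it was 84.9 ± 8.85 and 63.7 ± 16.5, and at SERPINH1 87.2 ± 3.64 and 68.3 ± 22.6, where the WT mean was 49 and the SETD2KO-1R mean 87.5. In RPTEC the SERPINH1 values were 82.5 ± 2.85 and 82.4 ± 6.01 (exact permutation test, p = 1). CHPF had 56 ± 16.7 and 51.8 ± 25.9 there. SLC29A3 had 58.3 ± 40 and 55.1 ± 19.5 in RPTEC (exact permutation test, p = 0.886), and HM13 had 75 ± 24.3 and 66.2 ± 24.7 (p = 0.6). The SLC29A3 value rested on SETD2KO-2 replicate 1, which had no peak and counted as 0, and its difference was 22.7 without that library and -7.53 without SETD2KO-2 replicate 2. None of these 4 differences passed the test.

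**Figure D5:**
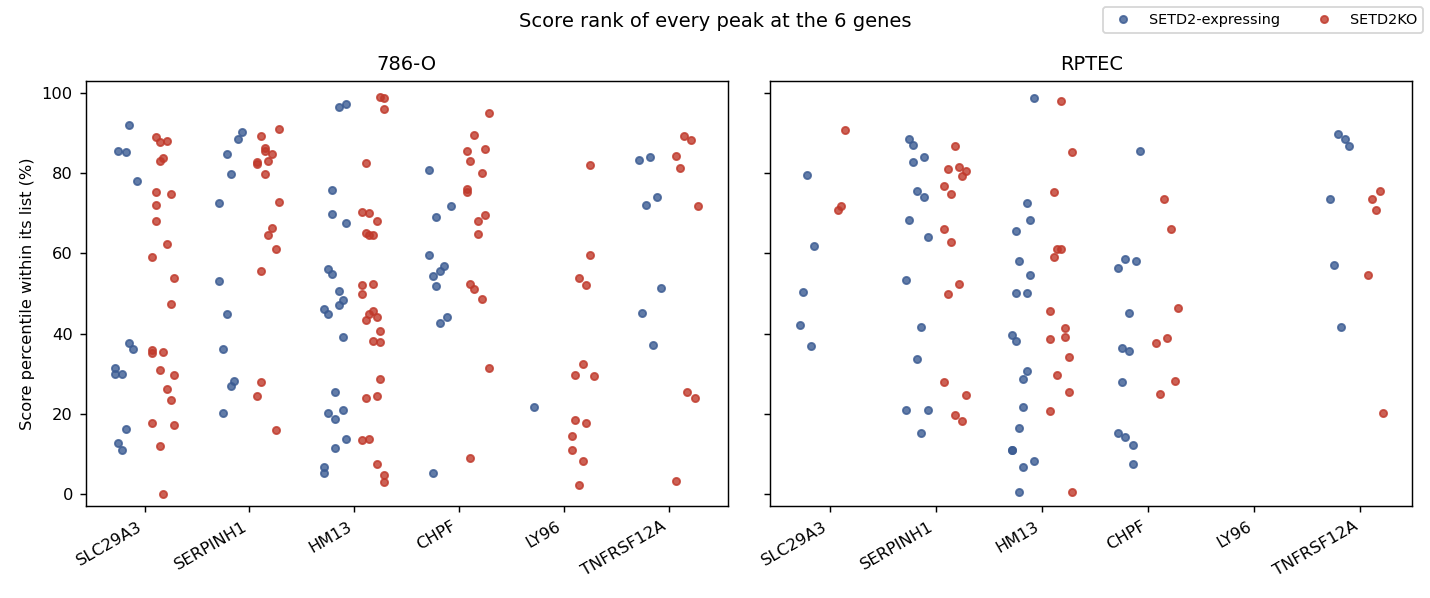
Score percentile of every peak at the 6 genes within its own list (vertical axis, %), by gene, in 786-O (left) and RPTEC (right). Red points are peaks of SETD2KO and blue points peaks of SETD2-expressing libraries, spread sideways only for legibility. HM13 holds the highest ranks, up to 99% in 786-O and 98.7% in RPTEC, and LY96 the lowest median, 25.6%.

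Other genes of the same pathways were counted from lists of related genes. None passed the exact permutation test after adjustment over all genes in either cell line. In 786-O, the median difference over all genes was 0 peaks, with 45% of genes higher and 40.2% lower in SETD2KO, and in RPTEC it was -0.25, with 30.5% higher and 53.6% lower. Of 21 genes of collagen folding and crosslinking, among which SERPINH1 works, 18 had a peak in 786-O with 12 higher and 4 lower means in SETD2KO and a median difference of 0.25 peaks, and 19 had one in RPTEC with 5 higher and 9 lower and a median of 0. PLOD1, a collagen lysyl hydroxylase, had 3 to 6 peaks in 786-O SETD2KO and 1 to 2 in SETD2-expressing libraries, as in 1.52% of all genes, and 1 to 2 in both groups of RPTEC. Of 22 genes of chondroitin sulphate synthesis, 20 had a peak, with 11 higher and 9 lower in 786-O and 8 higher and 10 lower in RPTEC. CHSY3, a chondroitin synthase, had 4 to 9 against 0 to 3 peaks in 786-O, beside the same 1.52%, and 3 to 7 against 0 to 5 in RPTEC.

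Around LY96, 10 of 14 genes of the TLR4 complex and its adaptors had a peak in each cell line, with 3 higher and 4 lower in 786-O and 2 higher and 4 lower in RPTEC. TLR4, the receptor that MD-2 binds, had 1 to 4 peaks in 786-O SETD2KO and 0 in all 4 SETD2-expressing libraries, again beside 1.52% of all genes, and 3 to 5 against 2 to 3 in RPTEC (exact permutation test, p = 0.286 in RPTEC, adjusted p = 1). RPTEC thus had TLR4 peaks in all 8 libraries and LY96 peaks in none. The other receptor-side genes CD14, LBP, LY86 and CD180 had no peak. Of 15 genes of the TWEAK receptor pathway, to which TNFRSF12A belongs, all had a peak, with 1 higher and 12 lower in 786-O, where 40.2% of all genes were lower, and 5 higher and 8 lower in RPTEC. RELB, the NF-kappa B subunit of the noncanonical arm, had 0 to 1 peaks in 786-O SETD2KO and 2 to 5 in SETD2-expressing libraries, as in 0.901% of genes in that direction, and 2 to 5 against 0 to 4 in RPTEC. PLOD1, CHSY3, TLR4, RELB and VEGFA were picked out of their lists after their 786-O values were seen. Of 6 further nucleoside transporters, 4 had a peak in 786-O with 2 higher and 2 lower, and 3 in RPTEC with 1 higher and 2 lower. Of 11 signal peptide and presenilin-type proteases related to HM13, 8 had a peak in 786-O with 0 higher and 4 lower, and 10 in RPTEC with 2 higher and 6 lower.

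The genes whose peaks per 10000 listed peaks followed each member most closely over the 16 libraries were found among 9089 to 9459 protein-coding genes on other chromosomes with a peak in at least 8 libraries. The 16 points include both cell lines, so a difference between cell lines enters each Pearson r, and the values are descriptions without a test. SLC29A3 was followed by NPDC1 (r = 0.936) and TBKBP1 (r = 0.921), both with 4 peaks per library in 786-O SETD2KO, 1.75 in 786-O SETD2-expressing libraries and 0.5 or fewer in RPTEC. LY96 was followed by ACSM5 (r = 0.915) and KIAA1671 (r = 0.898). For SERPINH1 they were RTL5 (r = 0.797) and PPL (r = 0.796), for HM13 CHP1 (r = 0.851) and PDSS2 (r = 0.822), for CHPF SEPTIN6 (r = 0.802) and MTOR (r = 0.77), and for TNFRSF12A CHD3 (r = 0.851) and NDUFB2 (r = 0.831).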

How the data were processed

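IP and Input RNA of 16 MeRIP-seq samples was fragmented and sequenced with an E. coli RNA spike-in. For alignment the authors used STAR and for counting HTSeq, with scale factors from that spike-in. MACS2 then gave them 1 list of IP peaks against Input for each library on hg38, so replicates were not pooled. Per the file headers the lists are narrowPeak tables. The deposited values used were a whole-number score per peak, whose scale is not stated, and the summit position given by the authors' caller. The score served only as a rank within its list. Depth is unknown, so no counting intervals are given.

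Peaks were assigned to GRCh38.p14 RefSeq gene bodies. Exons were not used here. Numbers of peaks, bp under peaks and best score percentile (0 in a library without a peak) were compared between 4 SETD2KO and 4 SETD2-expressing libraries by a two-sided exact permutation test over the 70 arrangements, with Benjamini-Hochberg adjustment over all protein-coding genes with a peak in the cell line. Calls of regions were compared by Fisher's exact test. The members and lists were chosen with earlier results of these data known. The text names the 6 genes, SETD2, METTL3, list genes whose groups did not overlap in RPTEC (CDH5), and the 2 genes most like each member. PLOD1, CHSY3, TLR4, RELB and VEGFA were named outside this rule after their values were seen, because their groups did not overlap in 786-O. Marker and list genes named for having a peak or none were also picked after their values were seen. The arithmetic of the counts and the test was checked on simulated data, which says nothing of power after adjustment. Replicate numbers did not pair the lines (correlations of replicate differences -0.261 to 0.291 in RPTEC and -0.115 to 0.263 in 786-O). Alternatives were the upper 50% of each list, lists of equal length, values per 10000 peaks, other rules of overlap, WT alone, each clone alone, leaving out each library, and blocking by replicate number. The tests ran in SciPy 1.17.1 with pandas 2.3.3 and NumPy 2.4.6 under Python 3.11.15, and figures were drawn with Matplotlib 3.10.9.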

Additional observations from a re-analysis of the deposited data

Results flagged for a closer look

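In 8 of 43 groups of 4 libraries, 1 library lay far from the other 3. How often chance gives this in such data was not worked out, and in small counts with ties a step of 1 peak is enough. SLC29A3 had 6 peaks in 786-O SETD2KO-1R replicate 1 and 2 in each other SETD2-expressing library. In RPTEC SETD2KO-2 replicate 1 it had 0 peaks, against 1 in each other SETD2KO library, and 0 bp under peaks, against 333 to 376. In RPTEC SETD2KO-1R replicate 2 it had 2 peaks, against 1 in each other SETD2-expressing library. LY96 had 4 peaks in 786-O SETD2KO-1 replicate 2 and 3 in the others of SETD2KO. In 786-O SETD2KO-1R replicate 1 it had 1 peak and 299 bp under peaks, against 0 in the others of its group. TNFRSF12A had 1 peak in 786-O SETD2KO-1R replicate 2 and 2 in the others. Of these 8 flags, 5 concern a library of the rescued clone.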

How the results depend on the processing

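The differences in peaks and bp at SLC29A3 and CHPF in both cell lines, and at SERPINH1 and LY96 in 786-O, kept their direction under every alternative run, save that SLC29A3 in RPTEC differed by 0 peaks in the upper 50% of the lists. With the upper 50% of each list the LY96 difference in 786-O was 1 peak and 541 bp, and with equal lists it was 1.75 peaks. At TNFRSF12A in 786-O it was -0.5 peaks and -114 bp with equal lists, -23.2 bp with SETD2KO-2 alone, and -45.1 to 317 bp with each library left out. HM13 in 786-O gave -237 bp against WT alone. In RPTEC, HM13 gave 0.25 peaks with equal lists and 0.75 with SETD2KO-1 alone. TNFRSF12A in RPTEC gave 0.25 peaks and 88 bp with the summit inside the gene, 0.25 peaks against WT alone, and -0.5 to 0.167 peaks with each library left out. SERPINH1 in RPTEC gave 39.6 bp per 10000 peaks, 199 bp against WT alone, 18.8 bp with SETD2KO-2 alone, and -0.167 to 0.5 peaks and -247 to 193 bp with each library left out. The lower value of SLC29A3 in RPTEC was -35.8 bp in the upper 50% (exact permutation test, p = 0.743), -93 bp per 10000 peaks (p = 0.143), -282 bp against WT alone, -225 bp with SETD2KO-1 alone and -388 bp with SETD2KO-2 alone (p = 0.133 each, designs too small to reach 0.05), and -368 to -217 bp with each library left out (p = 0.0286 to 0.171). With the replicate block, although the numbers do not pair the lines, it was -307 bp with an exact permutation p of 0.0556 over 36 arrangements. Best score percentiles with each library left out, added after seeing the data, ranged in RPTEC from -7.53 to 22.7 at SLC29A3, -2.66 to 2.11 at SERPINH1, -0.0900 to 20.01 at HM13 and -3.87 to 15.3 at CHPF, and in 786-O from -1.58 to 3.06 at SLC29A3, and no other gene turned sign.

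Genes whose SETD2KO libraries all exceeded the others by bp in 786-O numbered 2 with equal lists in place of 1, and those all lower in RPTEC numbered 0 in the upper 50% and 0 per 10000 peaks in place of 1. The counts of genes by the sign of the mean were tried after seeing the data. Genes with a lower mean in 786-O numbered 1 by peaks and 1 by bp with equal lists, and 0 to 1 by bp with each library left out, in place of 0. Genes with a higher mean in RPTEC numbered 2 by peaks with equal lists, 2 with the summit inside and 0 to 2 with each library left out, in place of 1, and 1 by bp per 10000 peaks, 1 with the summit inside and 0 to 1 with each library left out, in place of 0. Those with a lower mean in RPTEC by peaks numbered 2 in the upper 50% in place of 4, and 3 to 5 with each library left out. The upper 50% gave 27 regions in place of 43, 89 calls in place of 157 in 786-O and 51 in place of 92 in RPTEC, where a cover of at least 50% of the region gave 47. The cause of these changes was not tested, save that the upper 50% holds fewer peaks. Depth per library is unknown, so a peak that is not listed sets no limit on enrichment.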
